A study of Mus musculus with 6 samples.

Results

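The MHC class I pathway was described here through 10 genes in regulatory T (Treg) cells sorted from mouse tumours. The genes were chosen by name: B2m, H2-K1, H2-D1, Tap1, Tap2, Tapbp, Psmb8, Psmb9, Psmb10 and Nlrc5. Each name matched 1 row of the deposited expression table, so the set comprised 10 of 55450 genes. Treg cells are CD4 T cells marked by Foxp3 that dampen immunity, and here they came from C57BL/6 mice bearing MC38, a colon carcinoma line that grows as a graft. There were 3 libraries from mice whose Treg cells were Tim-3 sufficient and 3 from mice whose Treg cells were Tim-3 deficient. Tim-3, encoded by Havcr2, is an inhibitory receptor of activated T cells. Both groups carried MC38 tumours on the same strain, and no drug treatment is named for either. The allele, the Cre driver, the age of the mice and the number of mice per library are not given in the sources used here.

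MHC class I molecules display peptides from inside the cell to CD8 T cells and natural killer (NK) cells. Proteasomes cut proteins into peptides, the TAP transporter carries the peptides into the endoplasmic reticulum, and tapasin helps load them onto a heavy chain paired with beta-2-microglobulin. Interferons and the transactivator NLRC5 raise the genes of this pathway together, and lymphocytes express it at a high level without stimulation.

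Per library, the table gave log2(TPM + 1), TPM being a length-scaled transcript level of which each library adds up to 1000000. This unit keeps no read number, so depth is unknown. The libraries are named by marks in the table's headers. Those of the sufficient group are A1, B1 and dated, and those of the deficient group are C1, D and dated. "Dated" denotes the 1 library per group whose header carried a calendar date, and the headers do not say what the date refers to. The dated pair, from opposite groups, had Pearson's r of 0.966 across 12155 tested genes, above every pair of deficient libraries. Only sufficient A1 with sufficient B1 had a higher r, at 0.970. Between 11470 and 12681 genes reached 1 TPM. The deficient dated library also lacked Y-linked transcripts: 4 Y-linked genes summed to 0.01 TPM there and to between 139.5 and 185.55 TPM in the other 5 libraries. The Treg marker Foxp3 was present in each library at log2 values from 4.82 to 5.56. Havcr2 had log2 values of 5.70, 5.64 and 4.49 in sufficient A1, B1 and dated, and 3.54, 4.27 and 2.55 in deficient C1, D and dated. All deficient libraries lay below all sufficient ones, yet transcript remained, and the difference of -1.83 did not pass the threshold in limma (adjusted p = 0.211). Adding the date mark as a block brought the adjusted p of Havcr2 in limma to 0.0148.

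Several class I promoters carry a shared module, and the letters of 3 of them show what these genes have in common. RefSeq windows on GRCm38.p6, running from 250 bases before to 50 bases after a start site, were found for 8 of the 10 genes (not Tap2 or Nlrc5). The module contains the X2 box, bound by CREB and ATF proteins, and the Y box, bound by NF-Y. NLRC5 acts through factors assembled there. Capitals mark TGACG (within the X2 box) and ATTGG (the Y box), set 20 bases apart:
H2-K1, chr17:34000359-34000388, minus strand: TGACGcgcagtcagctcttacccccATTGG
H2-D1, chr17:35262993-35263022, plus strand: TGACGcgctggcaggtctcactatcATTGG
B2m, chr2:122147609-122147638, plus strand: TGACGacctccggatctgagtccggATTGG
These stretches start 41, 101 and 78 bases upstream of the RefSeq start of H2-K1, H2-D1 and B2m. The same spaced pair, searched on both strands, occurred in 31 of 32851 windows (0.0944%), and 3 of the 8 windows of the set held it. Where the 20-base spacing came from is not recorded, so these shares are a description and no test of enrichment. TGACG alone occurred in 20.8% of windows and ATTGG alone in 37.4%. Of the 13 class Ib windows, that of H2-M3 held the pair. A match describes letters in a window and was not measured as binding.

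Upstream of that module the heavy-chain promoters held letters of a kappaB site, the binding site of NF-kappaB, and of an interferon-stimulated response element (ISRE). The letters searched were read from the H2-K1 and B2m windows. In the stretches of H2-K1 and H2-D1, capitals mark GGGGATTCCC (kappaB) and the reverse complement of GAAGTGAAAC (ISRE). For B2m they mark GAAANNGAAA (ISRE) and the reverse complement of GGGANTTTCC (kappaB):
H2-K1, chr17:34000429-34000458, minus strand: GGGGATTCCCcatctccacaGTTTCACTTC
H2-D1, chr17:35262923-35262952, plus strand: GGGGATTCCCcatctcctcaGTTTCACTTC
B2m, chr2:122147548-122147577, plus strand: GAAACTGAAAatgGGAAAGTCCCtttgtaa
H2-K1 and H2-D1 were identical at 29 of 30 bases of this stretch and at 23 of 30 bases of the X2 and Y stretch. GGGGATTCCC occurred on either strand in 0.107% of all windows and GAAGTGAAAC in 0.14%, in both cases with H2-K1 and H2-D1 as the only windows of the set. Of the 13 class Ib windows, those of H2-Q6 and H2-Q7 held GGGGATTCCC, and 5 held GAAGTGAAAC (H2-M3, H2-Q10, H2-Q4, H2-Q6 and H2-Q7). The B2m letters were more common, GAAANNGAAA in 3.44% and GGGANTTTCC in 0.411% of windows.

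For none of the 10 genes did the difference between Tim-3 deficient and sufficient libraries pass the test. All 10 passed the filter on low values (a minimum of 1 TPM in 3 of the 6 libraries). In limma with Benjamini-Hochberg adjustment over 12155 genes, 0 of 10 were called at an adjusted p under 0.05, against 0.206% of all tested genes. None had an unadjusted p under 0.05. In the model that also held the date mark as a block, 0 of 10 were called against 1.97% of all genes, again with none at an unadjusted p under 0.05. The 2 groups overlapped for all 10 genes, whereas they did not overlap for 17.6% of tested genes. Separate mice per library are not stated, and each p therefore measures the spread between libraries, which may be technical.

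**Figure D1:**
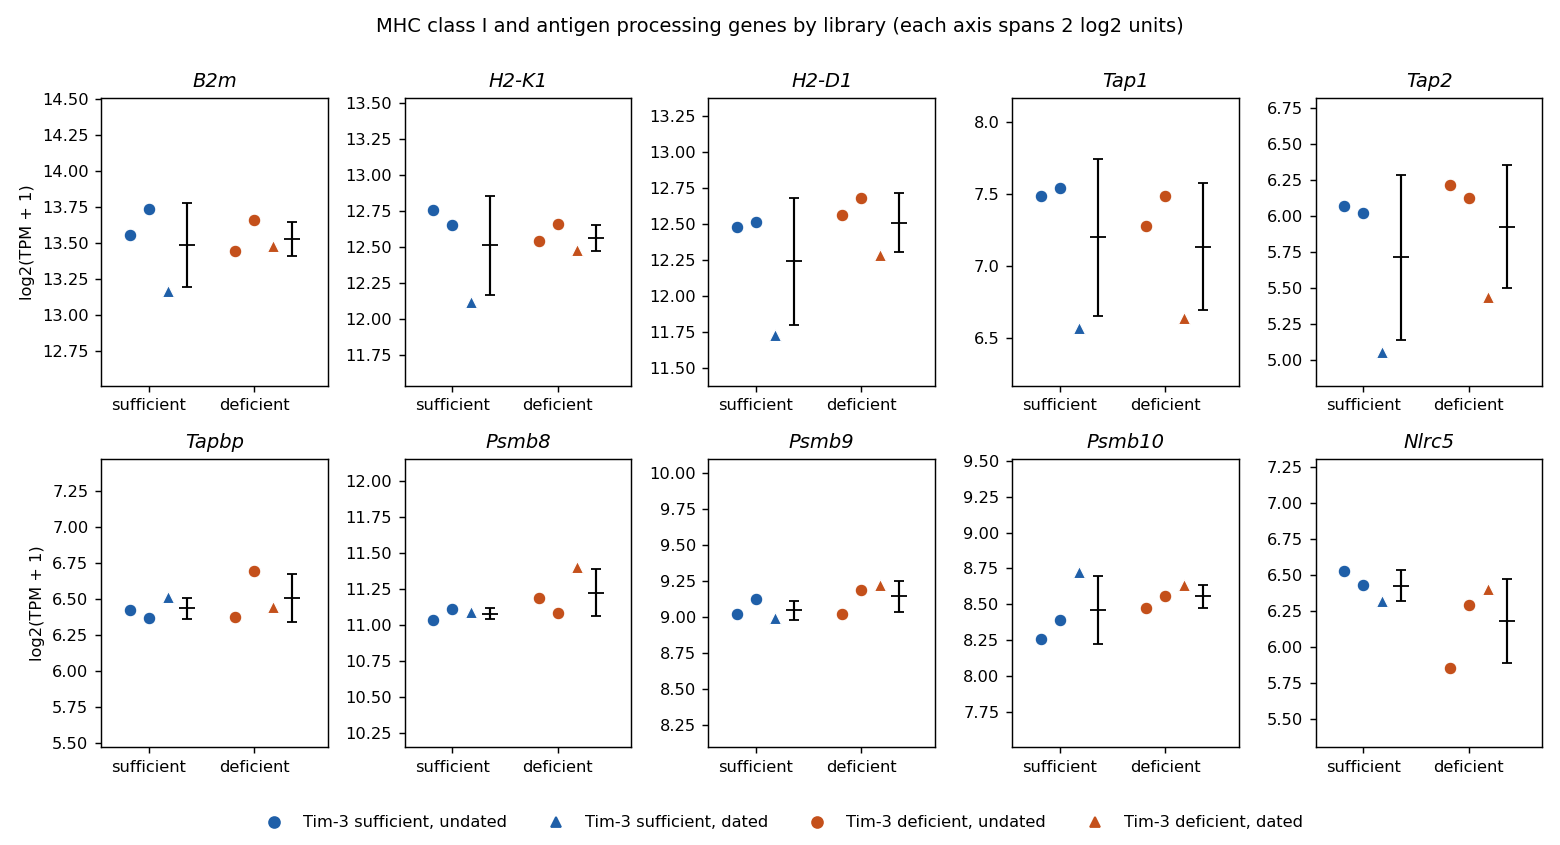
Log2(TPM + 1) of each gene in the 6 libraries (vertical axis, 2 log2 units high in every panel) by group (horizontal axis); circles are undated and triangles dated libraries, and the bar is the group mean ± SD (n = 3). The groups overlap in all 10 panels, while both triangles lie below all circles for H2-K1, H2-D1, Tap1 and Tap2 and above them for Psmb10.

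Among the 55450 genes of a library, B2m ranked 2 to 6 by level, H2-K1 9 to 24 and H2-D1 9 to 35. B2m encodes beta-2-microglobulin, the invariant light chain (ENSMUSG00000060802.8, GRCm38 chr2:122147686-122153083, plus strand). Its log2 values were 13.56, 13.73 and 13.16 in sufficient A1, B1 and dated, and 13.44, 13.66 and 13.48 in deficient C1, D and dated. The sufficient dated library was lowest and the deficient values lay inside the sufficient range. The difference, deficient minus sufficient, was 0.04 (95% interval -0.36 to 0.45, limma adjusted p = 0.943). By header mark it was -0.09 for undated and 0.32 for dated libraries. H2-K1, the K heavy chain (ENSMUSG00000061232.16, chr17:33996017-34000347, minus strand), had log2 values of 12.76, 12.66 and 12.12 in the sufficient and 12.54, 12.66 and 12.48 in the deficient libraries. Again the sufficient dated library was lowest and the groups overlapped. Its difference was 0.05 (interval -0.38 to 0.48, adjusted p = 0.940), made of -0.11 for undated and 0.36 for dated libraries. For both genes the sign flipped when every library was centred on its median gene, which lowered the difference of the median gene by 0.13.

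H2-D1, the D heavy chain (ENSMUSG00000073411.11, chr17:35262730-35267499, plus strand), had a positive difference whose size depended on 1 library. Its log2 values were 12.48, 12.51 and 11.73 in the sufficient and 12.57, 12.68 and 12.28 in the deficient libraries. Undated deficient libraries were the highest, but deficient dated lay below both undated sufficient libraries. The difference was 0.27 (interval -0.26 to 0.80, limma adjusted p = 0.684). The undated libraries gave 0.13 and the dated pair 0.55. Without sufficient dated the difference was 0.014 (adjusted p = 0.984), and without any other single library it was 0.18 to 0.40. In the blocked model the interval of H2-D1 narrowed to -0.02 to 0.55 and its adjusted p was 0.276. Heavy-chain genes resemble each other and some class Ib genes in sequence, so reads can be split between them and each single value is uncertain. Adding the TPM of H2-K1 and H2-D1 gave summed log2 values of 13.63, 13.59 and 12.94 in the sufficient and 13.55, 13.67 and 13.39 in the deficient libraries. On that sum too the groups overlapped.

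The light chain and the summed heavy chains had similar levels. The log2 ratio of B2m to the sum of H2-K1 and H2-D1 was -0.07, 0.15 and 0.22 in sufficient A1, B1 and dated and -0.11, -0.01 and 0.09 in deficient C1, D and dated. B2m exceeded the sum in 3 of 6 libraries, and the ratios overlapped between groups. Between the heavy chains, the log2 ratio of H2-K1 to H2-D1 was 0.28, 0.15 and 0.39 in the sufficient and -0.02, -0.02 and 0.20 in the deficient libraries. H2-K1 thus exceeded H2-D1 in 4 of 6 libraries, and deficient dated lay within the sufficient range of this ratio.

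The peptide transporter spread more between libraries than any other step. TAP1 and TAP2 form the pump that carries peptides into the endoplasmic reticulum. Tap1 (ENSMUSG00000037321.17, chr17:34187553-34197225, plus strand) had log2 values of 7.49, 7.54 and 6.57 in the sufficient and 7.28, 7.49 and 6.64 in the deficient libraries. Tap2 (ENSMUSG00000024339.12, chr17:34203527-34216321, plus strand) had 6.07, 6.02 and 5.06 in the sufficient and 6.22, 6.12 and 5.44 in the deficient libraries. For each gene alone the dated library of each group was lowest, and the groups overlapped. The group difference was -0.07 for Tap1 (interval -0.79 to 0.66, limma adjusted p = 0.951). For Tap2 it was 0.21 (interval -0.54 to 0.96, adjusted p = 0.842). The log2 ratio of Tap1 to Tap2 within a library was 1.43, 1.53 and 1.55 in sufficient A1, B1 and dated and 1.07, 1.37 and 1.22 in deficient C1, D and dated. On this ratio every deficient library lay below every sufficient one. It was 1 of 5 within-library values computed besides the subunit ratios, and the groups overlapped on the other 4. The mean was 1.22 ± 0.15 (SD, n = 3) in deficient and 1.504 ± 0.06 in sufficient libraries (exact permutation test, two-sided p = 0.1, the smallest possible, and 0.5 adjusted over the 5 values). The intervals of the single genes reached folds of 1.73 for Tap1 and 1.95 for Tap2, and in the blocked model they reached 1.27 and 1.44.

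Tapbp encodes tapasin, which holds TAP and the empty class I molecule together (ENSMUSG00000024308.15, chr17:33915899-33929292, plus strand). Its log2 values were 6.42, 6.37 and 6.51 in the sufficient and 6.38, 6.69 and 6.44 in the deficient libraries. No date pattern like that of the transporter appeared, and deficient D was highest. The difference was 0.07 (interval -0.28 to 0.42, limma adjusted p = 0.889).

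The 3 inducible catalytic subunits replace their constitutive counterparts to form the immunoproteasome, which favours peptides that fit class I grooves. Psmb8 (ENSMUSG00000024338.15, chr17:34197721-34201454, plus strand) had log2 values of 11.04, 11.11 and 11.09 in the sufficient and 11.19, 11.08 and 11.41 in the deficient libraries. Deficient dated was highest, and deficient D lay within the sufficient range. The difference was 0.15 (interval -0.16 to 0.45, limma adjusted p = 0.703). Psmb9 (ENSMUSG00000096727.3, chr17:34181987-34187764, minus strand) had 9.02, 9.12 and 8.99 in the sufficient and 9.02, 9.19 and 9.22 in the deficient libraries. Of the 10 genes Psmb9 varied least, with an SD of 0.10 over the 6 libraries. Its difference was 0.10 (interval -0.19 to 0.39, adjusted p = 0.809). Psmb10 (ENSMUSG00000031897.9, chr8:105935735-105938444, minus strand) had 8.26, 8.39 and 8.72 in the sufficient and 8.48, 8.56 and 8.63 in the deficient libraries. The deficient values lay inside the sufficient range, which the dated library stretched upward. Its difference was 0.10 (interval -0.26 to 0.46, adjusted p = 0.846).

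Nlrc5 encodes the class I transactivator (ENSMUSG00000074151.13, chr8:94434356-94527272, plus strand). It had log2 values of 6.53, 6.43 and 6.31 in the sufficient and 5.85, 6.29 and 6.40 in the deficient libraries. Deficient C1 was lowest and the groups overlapped through both dated libraries. The difference was -0.24 (interval -0.67 to 0.19, limma adjusted p = 0.639). Without deficient C1 it was -0.077 (adjusted p = 0.937), and without any other single library -0.35 to -0.19. The undated libraries gave -0.41 and the dated pair 0.09, so the sign differed between the header marks. Among undated libraries alone, deficient C1 and D lay below sufficient A1 and B1.

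**Figure D2:**
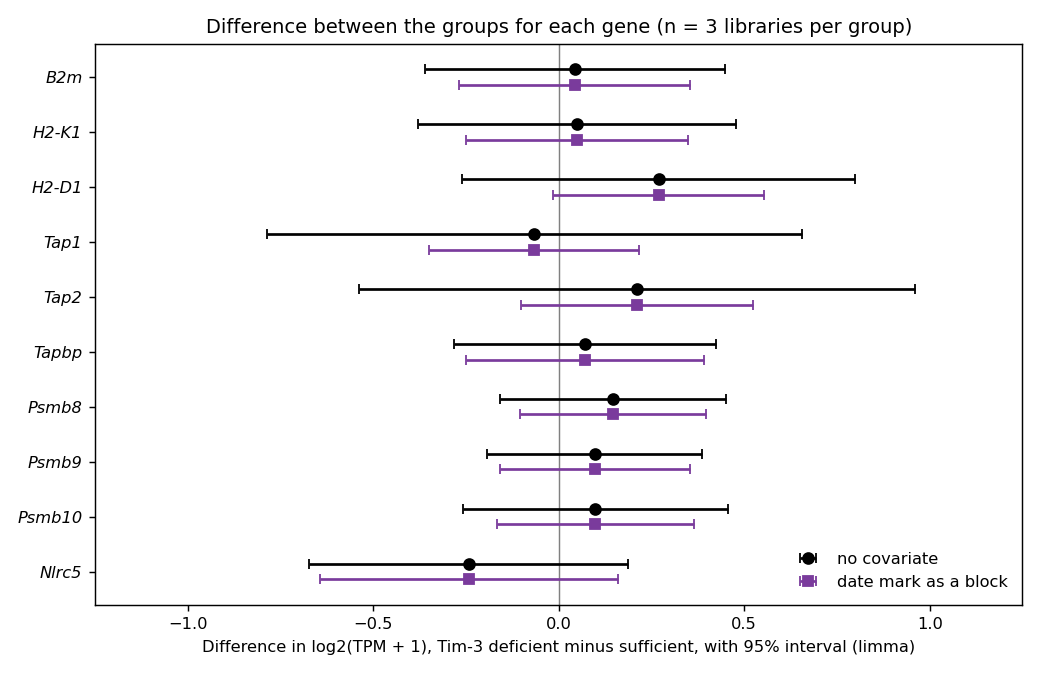
Difference in log2(TPM + 1), deficient minus sufficient (horizontal axis), for each of the 10 genes, with its 95% interval from limma; circles come from the model without covariate and squares from that with a date block (n = 3 per group). Every interval includes 0, and those of Tap1 and Tap2 narrow most with the block, from a largest fold of 1.73 and 1.95 to 1.27 and 1.44.

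The differences of the 10 genes were small. Of them 8 were positive and 2 negative, with a median of 0.08 against 0.09 over all tested genes. Under median centring 5 of the 8 positive ones (B2m, H2-K1, Tapbp, Psmb9 and Psmb10) turned negative, since that centring lowers every difference by the same amount. The median of the set minus that of all genes was -0.01, and over the other settings it ran from -0.085 to 0.10. The median absolute difference was 0.10 for the set and 0.27 over all tested genes. Across the 6 libraries the median SD of a gene was 0.21 in the set and 0.37 over all tested genes. The set was also higher in level: its mean log2 values ran from 5.82 to 13.51, and the library medians of tested genes from 3.32 to 3.80. For the 18 proteasome core, assembly and activator genes the median absolute difference was 0.14 and the median SD 0.14. No comparison with genes of like level was made. The largest fold that an interval of a gene in the set contained, in either direction, ran from 1.31 for Psmb9 to 1.95 for Tap2. Summed, the 10 genes made up 2.81%, 2.94% and 2.04% of TPM in sufficient A1, B1 and dated and 2.67%, 2.95% and 2.61% in deficient C1, D and dated. Sufficient dated was lowest on this share and the groups overlapped. In bulk libraries, fewer cells of a type and less RNA per cell cannot be told apart.

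The order of levels was almost the same in every library. By mean TPM, a measure per transcript length, B2m led with 11724 TPM, followed by H2-K1 with 6003 and H2-D1 with 5431. Psmb8 had a mean of 2286 TPM, Psmb9 546 and Psmb10 365. Tap1 had 148 TPM, Tapbp 87.8, Nlrc5 78.7 and Tap2 57.8. Most neighbours in this order kept their place in 6 of 6 libraries. The exceptions were H2-K1 above H2-D1 in 4 libraries, Tapbp above Nlrc5 in 4 and Nlrc5 above Tap2 in 5, so these neighbours were not separated beyond their spread. TAP transcripts were thus far scarcer than the transcripts of the molecules they supply, a comparison of levels only.

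Ratios of inducible to constitutive catalytic subunits do not depend on the total of a library. Psmb5, Psmb6 and Psmb7 encode the constitutive partners of Psmb8, Psmb9 and Psmb10. The log2 ratio of Psmb8 to Psmb5 was 2.79, 2.80 and 2.98 in sufficient A1, B1 and dated, and 2.64, 2.86 and 3.40 in deficient C1, D and dated. Every library held several times more Psmb8 than Psmb5 transcript, a mean of 7.52-fold. For Psmb10 to Psmb7 the log2 ratio was 1.65, 1.83 and 2.40 in the sufficient and 1.47, 1.94 and 2.27 in the deficient libraries, a mean of 3.80-fold. Psmb9 and Psmb6 had similar levels: their log2 ratio was 0.00, 0.06 and -0.03 in the sufficient and -0.31, 0.07 and 0.28 in the deficient libraries, a mean of 1.01-fold.

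The groups overlapped for the 3 ratios. For Psmb8 to Psmb5 the mean log2 ratio was 2.97 ± 0.39 (SD, n = 3) in deficient and 2.85 ± 0.11 in sufficient libraries (exact permutation test, two-sided p = 0.8). For Psmb9 to Psmb6 it was 0.01 ± 0.30 against 0.01 ± 0.05 (exact permutation p = 0.9). For Psmb10 to Psmb7 it was 1.89 ± 0.40 against 1.96 ± 0.39 (exact permutation p = 0.8). Adjusted over the 3 ratios each p was 0.9, and 3 against 3 libraries cannot reach a p below 0.1. Both dated libraries lay above all undated ones for Psmb8 to Psmb5 and for Psmb10 to Psmb7, but not for Psmb9 to Psmb6.

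**Figure D3:**
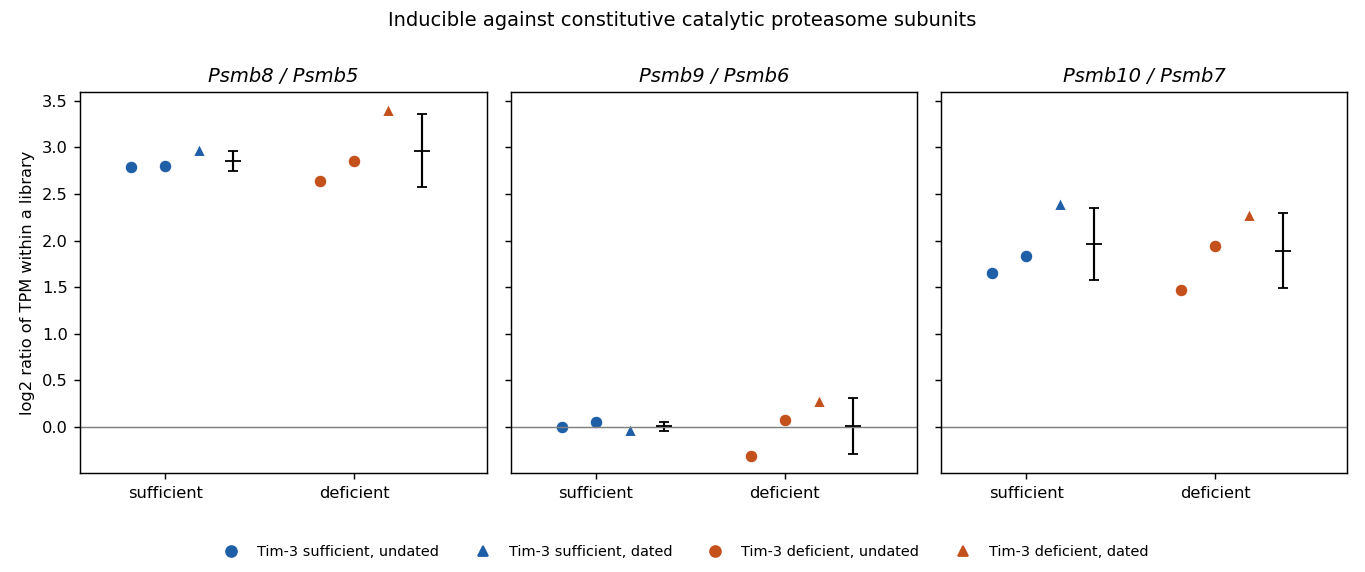
Log2 ratio of TPM of each inducible to its constitutive proteasome subunit within a library (vertical axis) by group (horizontal axis); circles are undated and triangles dated libraries, and bars are the mean ± SD (n = 3). Groups overlap in the 3 panels, and Psmb9 to Psmb6 lies near 0 while the other 2 ratios lie between 1.47 and 3.40.

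The transporter genes split the libraries by the date mark. This comparison, the 2 dated against the 4 undated libraries with group as a term, was chosen after the values were seen. Tap1 and Tap2 fell in the dated libraries, and the other 8 genes did not pass the threshold: 2 of 10 were called, both lower, against 3.56% of tested genes called in either direction and 2.99% called lower. The undated libraries had Tap1 log2 values of 7.28 or more and Tap2 values of 6.02 or more, and the dated ones had at most 6.64 and 5.44. Tap1 was lower by a log2 difference of -0.84 (95% interval -1.14 to -0.54, limma adjusted p = 0.0267). Tap2 was lower by -0.86 (interval -1.19 to -0.53, adjusted p = 0.0305), which is 1.82-fold less, against 1.79-fold for Tap1. The median over all tested genes was itself -0.20, since dated libraries had lower log2 values overall. After each library was centred on its median gene, the differences were -0.52 for Tap1 (adjusted p = 0.0821) and -0.54 for Tap2 (adjusted p = 0.0776), and neither passed. Of 11 other settings, each call held only without deficient C1. Over those settings Tap1 ranged from -0.94 to -0.52 (limma adjusted p 0.0232 to 0.140) and Tap2 from -0.99 to -0.54 (adjusted p 0.0373 to 0.140). Without deficient dated, the library lacking Y-linked transcripts, Tap1 was at -0.94 (adjusted p = 0.0903) and Tap2 at -0.99 (adjusted p = 0.107). Without sufficient dated they were at -0.74 (adjusted p = 0.1001) and -0.73 (adjusted p = 0.124). Leaving out an undated library other than C1 gave, for Tap1 and Tap2, limma adjusted p-values of 0.0991 and 0.103 (A1), 0.0789 and 0.0842 (B1), and 0.0676 and 0.0651 (D). The direction held in all 11 settings for both genes.

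The heavy chains had lower values in the dated libraries, without passing. H2-D1 differed by -0.55 (limma adjusted p = 0.0593) and H2-K1 by -0.35 (adjusted p = 0.163). H2-D1 passed in 2 of the 11 other settings, with quantile normalization (adjusted p = 0.0453) and without deficient C1 (adjusted p = 0.0370). Under median centring the differences shrank to -0.23 for H2-D1 (limma adjusted p = 0.421) and -0.033 for H2-K1 (adjusted p = 0.926). Without sufficient dated they were -0.34 (adjusted p = 0.275) and -0.12 (adjusted p = 0.713). Both dated libraries lay below all undated ones for H2-K1, H2-D1, Tap1 and Tap2, that is 4 of 10 against 23.4% of tested genes. Only Psmb10 lay wholly above, 1 of 10 against 7.07%, with a difference of 0.25 (limma adjusted p = 0.234). B2m differed by -0.28 (adjusted p = 0.267). The remaining 4 genes were at 0.14 (Psmb8), 0.09 (Nlrc5), 0.02 (Psmb9) and 0.01 (Tapbp), above the median gene at -0.20. Under median centring, where the median gene lay at 0.12, these 4 were at 0.46, 0.41, 0.34 and 0.33 and Psmb10 at 0.57. None of these 5 passed there either (limma adjusted p 0.0629 to 0.242).

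Several measures of the libraries moved with the same mark. The dated libraries had 11470 and 11474 genes at 1 TPM or more, and the undated ones between 12104 and 12681. A list of 5 CD8 and NK cell markers summed to 12.4 TPM in sufficient dated and 14.6 in deficient dated, against 31.8 to 71.2 in the undated libraries. Its member Ncr1 was at 0 in both dated libraries and also in sufficient B1. The 7 dendritic cell markers summed to 4.64 and 2.55 TPM in the dated libraries and to 5.86 to 10.7 in the others, with Siglech at 0 in all but sufficient A1. The 12 macrophage markers summed to 28.3 and 21.7 TPM in the dated libraries and to 135, 944 and 1382 in sufficient A1, sufficient B1 and deficient C1. In the undated deficient D they summed to 22.3 TPM, with 5 of 12 at 0 (among them Csf1r and Adgre1), and Tap1 and Tap2 had log2 values of 7.49 and 6.12 there. B cell markers went the other way: Igkc differed by 1.02, Cd79b by 0.998 and Ighm by 0.43 (limma adjusted p 0.0980 to 0.116). Of the 7 Treg markers, Ikzf2 (-0.77) and Ctla4 (-0.46) lay wholly lower in the dated libraries without passing (limma adjusted p = 0.0753 and 0.118). That is 2 of 7, beside 23.4% of all tested genes that lay wholly lower there. The part of the number of detected genes and of RNA from these cell types in the Tap1 and Tap2 result was not tested.

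**Figure D4:**
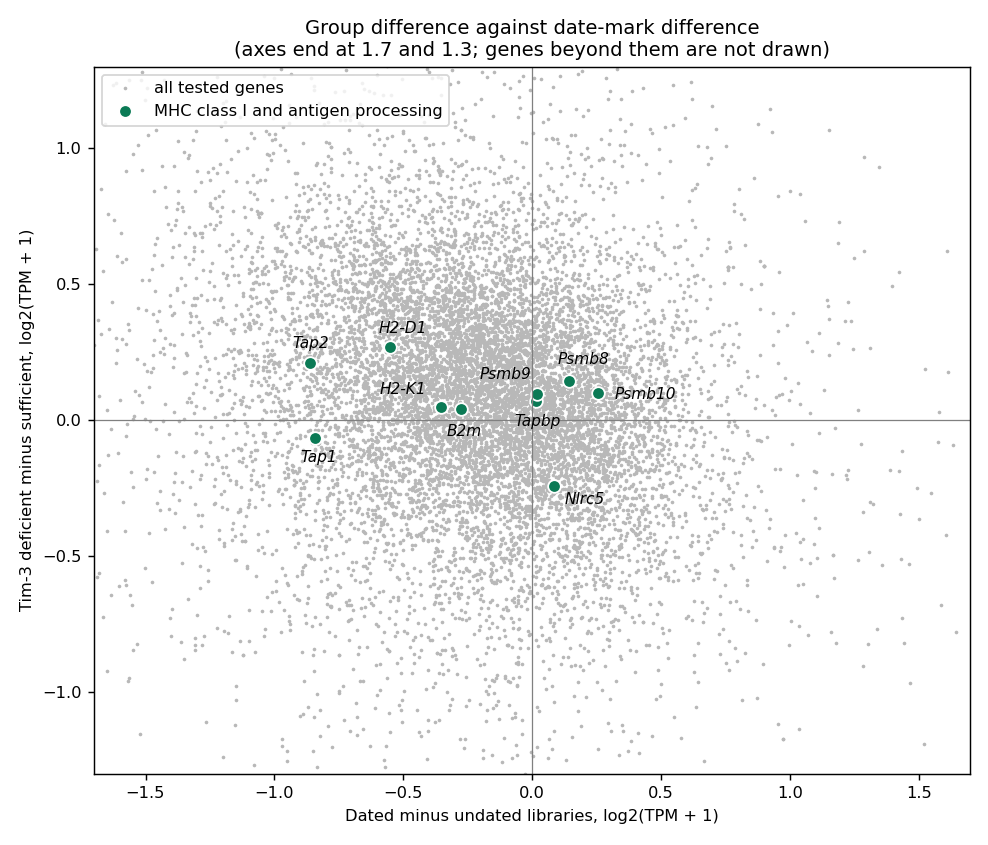
For each tested gene (grey) and the 10 class I pathway genes (green), the difference between groups (vertical axis) against the difference between dated and undated libraries (horizontal axis), both in log2(TPM + 1). The 10 genes span -0.24 to 0.27 vertically and -0.86 to 0.25 horizontally, with Tap1 and Tap2 farthest left.

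Tap1 and Psmb9 are neighbours that are read in opposite directions from a short shared stretch. Their RefSeq start sites on chromosome 17, at 34187556 for Tap1 and 34187330 for Psmb9, have 225 bases between them. The log2 ratio of Tap1 to Psmb9 was -1.54, -1.58 and -2.43 in sufficient A1, B1 and dated and -1.74, -1.71 and -2.59 in deficient C1, D and dated. Both dated libraries stood apart from the rest on this ratio, and the groups overlapped. The annotated ends of the 2 genes overlap on opposite strands. Strand is not stated for these libraries, so reads in that overlap cannot be assigned. The same holds for B2m, which lies within Patl2 on the opposite strand, and for Nlrc5 with 9330175E14Rik. It also holds for Tapbp, Psmb8, Tap2 and Psmb10, which overlap antisense genes. On their own strand, Tapbp also overlaps the protein-coding gene Zbtb22, and Nlrc5 overlaps Mir7072. Knowing the strand would not assign reads in those same-strand overlaps.

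How the 10 genes varied together is given only as a description over 6 libraries, which share the date split. Pearson's r was 0.94 for H2-D1 with Tap2, 0.92 for Tap1 with Tap2, 0.91 for H2-K1 with H2-D1 and 0.89 for B2m with H2-K1. A block of light chain, heavy chains and transporter thus varied in parallel. Psmb10 ran opposite to it, with an r of -0.84 with H2-K1 and -0.81 with Tap1. Tap1 and Psmb9 had an r of 0.01. Nlrc5 had an r of 0.19 with H2-K1, -0.16 with H2-D1 and 0.25 with B2m. The mean of the 10 scaled genes followed some of them closely and others little. Its r was 0.91 with B2m, 0.85 with H2-D1, 0.81 with H2-K1, 0.77 with Psmb9, 0.65 with Tap2 and 0.63 with Tap1. With Tapbp it was 0.32, with Nlrc5 0.21, with Psmb8 0.09 and with Psmb10 -0.37. The genes outside the set most like that mean were Rhoh (r = 0.990), Gpr83 (0.984), Nt5dc1 (0.981), Cdk9 (0.980) and Zfp592 (0.975). Gpr83 was low, at log2 values of 0.88 to 2.32. Outside the set, 119 genes had an r over 0.9 with that mean over the 6 libraries, so the genes named here head a longer list.

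Around these 10 genes, 73 others from 5 lists of the pathway were examined, and 69 were tested. None was called in limma with or without the date block, and 7 had an unadjusted p under 0.05. Groups did not overlap for 14 of the 69, 8 higher and 6 lower in deficient libraries, beside 17.6% of all tested genes. The median difference over the 69 was 0.09, the same as over all tested genes. The 4 untested genes were H2-M2, H2-Q1, H2-T3 and Hfe.

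Peptide loading and trimming comprised 12 genes, all tested, with 0 called and a median difference of 0.05. Pdia3, the oxidoreductase of the loading complex, differed by 0.31 (limma adjusted p = 0.447) and was the only gene of the list without overlap. Canx, the chaperone calnexin, differed by -0.29 (adjusted p = 0.556), and Sec61b, a subunit of the translocation channel, by -0.19 (adjusted p = 0.678). In the date comparison, 4 of the 12 fell in the dated libraries, against 2.99% of tested genes called lower. Sec61a1, the pore subunit of that channel, differed by -0.89 (limma adjusted p = 0.0291), and Calr, the chaperone calreticulin, by -0.71 (adjusted p = 0.0328). Tapbpl, a tapasin-related peptide editor, differed by -0.92 (adjusted p = 0.0373), and the chaperone gene Hspa5 by -0.71 (adjusted p = 0.0381). Each of these 4 calls held in 1 of the 11 other settings, that without deficient C1, and the direction held in all 11. Under median centring they were at -0.57 (Sec61a1), -0.39 (Calr), -0.60 (Tapbpl) and -0.39 (Hspa5), with limma adjusted p-values of 0.0710 to 0.138. These 4 were named after their values were seen.

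Class Ib and class I-like genes numbered 17, of which 13 were tested and 0 called, with a median difference of 0.12. Cd1d1, which presents lipids to NKT cells, had log2 values of 5.26, 4.99 and 5.12 in the sufficient and 5.86, 6.61 and 5.58 in the deficient libraries. Every deficient library was above every sufficient one. The difference was 0.90 (limma adjusted p = 0.252), and it was above 0 under all 16 other settings, from 0.60 to 1.12, with an adjusted p of 0.0913 to 0.801. MHC class II genes and B cell markers also had higher values in deficient libraries, without any gene called. All 6 tested MHC class II genes had positive differences (median 1.57, 3 with an unadjusted p under 0.05), and their list of 7 summed to 332 to 1151 TPM in the sufficient and 857 to 2564 TPM in the deficient libraries. All 3 tested B cell markers did too (Igkc at 1.49, groups not overlapping), and that list of 6 summed to 338 to 614 TPM and to 582 to 793 TPM. Macrophage and dendritic cell markers did not share this direction. Among the tested macrophage markers 3 differences were positive and 5 negative (median -0.24), and among the dendritic cell markers 1 and 1 (median -0.23). The part of RNA from other cell types in the Cd1d1 values was not tested. H2-Q7, a class Ib heavy chain, differed by 0.37 (limma adjusted p = 0.456) and also did not overlap. Of the 13 tested class Ib and class I-like genes, 3 lay wholly higher in deficient libraries (Cd1d1, H2-M3 and H2-Q7). In the other direction, 1 lay wholly lower (H2-Q2). Over all tested genes the groups did not overlap for 17.6%. H2-Q2 was low throughout, with log2 values of 1.71, 1.19 and 1.60 in the sufficient and 0.14, 1.15 and 0.20 in the deficient libraries (limma adjusted p = 0.339). The H2-Q genes are close copies of each other, so reads shared among them make these values uncertain.

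No proteasome gene outside the set was called either. The constitutive catalytic subunits differed by 0.17 (Psmb7), 0.09 (Psmb6) and 0.03 (Psmb5), with 0 of 3 called. Of 18 core, assembly and activator genes 0 were called, and 6 did not overlap between groups, beside 17.6% of all tested genes. Psme2, which encodes the beta subunit of the interferon-inducible PA28 activator, had log2 values of 10.70, 10.80 and 10.98 in the sufficient and 10.38, 10.37 and 10.60 in the deficient libraries. All deficient libraries lay below all sufficient ones. Its difference was -0.38 (limma adjusted p = 0.342, and 0.0987 with the date block). Psme4, the activator PA200, differed by -0.65 (adjusted p = 0.339), and the core subunit Psmb3 by 0.28 (adjusted p = 0.451).

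Among 23 transcription factors and interferon signalling genes, 0 were called, with a median difference of 0.07. Ifngr1, a chain of the interferon-gamma receptor, had log2 values of 10.58, 10.37 and 10.33 in the sufficient and 10.82, 11.22 and 11.00 in the deficient libraries. The groups did not overlap. The difference was 0.58 (95% interval 0.24 to 0.93, limma adjusted p = 0.194, and 0.0777 with the date block). Nfkb1 and Rela, which encode subunits of NF-kappaB, differed in opposite directions, by -0.61 (limma adjusted p = 0.339) and 0.47 (adjusted p = 0.380). Ifnar1, a chain of the interferon-alpha/beta receptor, was lower in the dated libraries by -0.89 (limma adjusted p = 0.0308), as was the activator subunit Psme3 by -0.87 (adjusted p = 0.0423). Of the 11 other settings, Ifnar1 passed in 1 (without deficient C1) and Psme3 in 0. Both were named after their values were seen.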

How the data were processed

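Bulk RNA sequencing of 6 libraries of sorted tumour Treg cells was analysed from 1 deposited table. STAR, RSEM and limma, without versions or roles, and the builds GRCm38 and mm10 are named in the submitters' processing notes. The deposited values are log2(TPM + 1): raised back to TPM, each library summed to between 999999 and 1000001. Reads were therefore not recoverable as counts and no counting interval was computed. Symbols and coordinates came from GENCODE mouse release M21 on GRCm38, to which all 55450 identifiers matched. Promoter windows came from RefSeq on GRCm38.p6.

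Genes at a log2 value of at least 1 in at least 3 of 6 libraries (12155) entered a linear model in limma with the group as its only term. Variances were moderated by eBayes along a trend with the mean, p-values were two-sided and Benjamini-Hochberg adjusted over all these genes, and a gene was called under 0.05. Differences on this scale, with a pseudocount of 1, understate changes of low genes. Headers gave each library's group but no replicate number. Subunit ratios were compared by exact permutation of libraries.

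The 10 genes, the pathway lists and the marker lists were chosen with earlier results of these data known. Named were all 10 genes, Havcr2, both genes of each ratio, and from each pathway list the genes past the threshold or otherwise the 3 of smallest p. The 5 non-members most correlated with the scaled mean were also named. Other settings covered the filter, pseudocount, normalization, variance model, the date mark and leaving out libraries. The fit was checked on simulated data. Software versions were Python 3.11.15 with numpy 2.4.6, pandas 2.3.3, scipy 1.17.1 and matplotlib 3.10.9, and R 4.3.3 with limma 3.58.1.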

Additional observations from a re-analysis of the deposited data

How the results depend on the processing

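Depth is unknown and 3 libraries per group limit precision, so intervals that include 0 also include folds up to 1.95. Of the 10 genes 0 were called in any of 16 other settings, where the lowest adjusted p in limma was 0.276 (H2-D1, date block). Leaving out both dated libraries, leaving out sufficient B1 with deficient C1, and the dated comparison were chosen after seeing the data. Over all genes 25 were called. That number was 1 with no filter, 38 with quantile normalization, 4 without the mean-variance trend, 240 with the date block, 215 without both dated libraries and 0 without sufficient B1 and deficient C1 (748 at an unadjusted p under 0.05). Leaving out 1 library at a time gave 0 (without sufficient B1 or deficient D, 978 and 944 at an unadjusted p under 0.05) to 121 (without deficient dated), with 2 without sufficient A1 and 11 without deficient C1. Quantile normalization moved the split of calls from 16 higher and 9 lower to 16 and 22, and median centring moved it to 11 and 19.

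The median difference of the 10 genes, 0.08, was -0.051 under median centring and ran from -0.052 (without sufficient dated) to 0.13 (without sufficient B1) when 1 library was left out. Several differences turned sign. Under median centring B2m was -0.092, H2-K1 -0.086, Tapbp -0.064, Psmb9 -0.038, Psmb10 -0.037, Psmb6 -0.043 and Psmb5 -0.10. With quantile normalization Tapbp was -0.026 and Psmb5 -0.022. Without both dated libraries B2m was -0.094 and H2-K1 -0.11, and without sufficient B1 and deficient C1 Tap1 was 0.032 and Psmb5 -0.067. With 1 library left out, B2m ranged from -0.12 to 0.17, H2-K1 from -0.15 to 0.17, Tap1 from -0.38 to 0.18, Tap2 from -0.12 to 0.46, Tapbp from -0.023 to 0.14, H2-D1 from 0.014 to 0.40, Nlrc5 from -0.35 to -0.077, Psmb7 from -0.0027 to 0.32, Psmb6 from -0.0083 to 0.19 and Psmb5 from -0.11 to 0.16. The log2 ratio differences ranged from -0.11 to 0.28 for Psmb8 to Psmb5, from -0.13 to 0.17 for Psmb9 to Psmb6 and from -0.26 to 0.15 for Psmb10 to Psmb7.

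In the dated comparison, B2m was 0.043 under median centring. Psmb8 was -0.016 and Psmb9 -0.0031 with quantile normalization. Tapbp was -0.079 and Nlrc5 -0.050 without sufficient B1 and deficient C1. With 1 library left out, Tapbp ranged from -0.089 to 0.12, Psmb9 from -0.077 to 0.12 and Nlrc5 from -0.16 to 0.33. The causes were not tested. No paired analysis was possible because the table's headers carry no replicate numbers, so the planned replicate block was not run.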
